A study of Homo sapiens with 4 samples.

Results

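Keratins are the proteins of the intermediate filaments of epithelial cells. An acidic type I keratin pairs with a basic type II keratin, and the pairs change with cell state: KRT5 and KRT14 form the filaments of the basal layer of a squamous epithelium, other pairs replace them in the suprabasal layers, KRT6 with KRT16 and KRT17 is induced by wounding and hyperproliferation, KRT8 and KRT18 fill simple epithelia, and a large set builds the hair shaft and its inner root sheath. In squamous cell carcinoma, keratins are used to read how far tumour cells have differentiated. The keratin genes of 2 cell lines of HNSCC, the squamous cell carcinoma of the head and neck, and of their cisplatin-resistant derivatives were examined here. The members were all genes whose name on the array is KRT followed by a number and, where present, the letter A, B or C, which gave 55 keratin genes of 43305 genes with a value on every array. They comprise 29 type I and 26 type II genes, placed by known biology in 7 groups: 3 basal, 12 suprabasal, 5 stress, 5 simple, 9 inner root sheath, 17 hair shaft and 4 other keratins. Keratin-associated proteins and keratin pseudogenes were not included.

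The study asked which genes differ between parental and resistant HNSCC cells. HN4 and HN30 are established human HNSCC lines, and HN4/DDP and HN30/DDP (labelled HN4_CR and HN30_CR) were obtained from them by raising the dose of cisplatin, which crosslinks DNA, in steps. By the labels, both resistant lines were kept for 48 h in medium with 20 μM cisplatin, while no drug is named for the parental lines. Each resistant line is the only one derived from its parent here, so its differences cannot be told apart from those of any other long-cultured derivative, and the drug on the cells cannot be told apart from the resistance. RNA of each line was hybridised to 1 one-colour Agilent array, on which a transcript is read from how bright its spot is. There was thus 1 array per condition, no replicate and no test of a resistant line against its parent.

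Levels are log2 signals relative to the 75th percentile of the same array, so that 0 marks that percentile, and a difference of 1 between arrays is a doubling. A spot is called dim when the scanner software did not mark it as well above background. A gene was counted as higher or lower when its log2 difference was past 2 and the brighter of both arrays had it well above background. Beside a difference stands the scanner SD, the error of the difference that follows from the scanner's own estimate per spot. It does not include the variation between cultures. For a gene that was dim on an array, the fold is given as a lower bound against the lowest signal that was well above background there. Signals of different genes come from different probes and were not compared with each other.

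The number of genes well above background lay between 23950 and 27625 on the 4 arrays. The median difference over all genes was -0.21 in HN4/DDP and -0.07 in HN30/DDP. Of 9 epithelial marker genes, 9 were well above background on all arrays, including CDH1, EPCAM and TP63. Of 6 fibroblast markers, 4 were dim on every array (COL1A2, COL3A1, DCN and LUM). The summed level of the fibroblast list on the log2 scale was -1.34 in HN4 and 0.04 in HN4/DDP, and -2.16 in HN30 and -0.37 in HN30/DDP, led by COL1A1 (differences 1.73 and 2.43). CD14, listed as a blood marker, was well above background on every array, with a difference of 3.49 in HN30/DDP. PTPRC, the defining leukocyte marker, was also well above background throughout, with differences of -0.10 and 0.16. Of 3 endothelial markers 1 and of 4 melanocyte markers 2 were well above background on every array. VWF and PECAM1, both endothelial, had differences of 2.43 and -2.88 in HN4/DDP, with VWF dim in HN4 and PECAM1 dim in HN4/DDP and HN30. The medians of the melanocyte list were -0.28 and -0.21, with PMEL at 1.25 and 1.90 and the other 3 members at or below -0.03. The part of other cell types in the keratin differences was not tested.

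Of the 55 keratins, 24 were well above background on all 4 arrays, 16 on 1 to 3 arrays and 15 on none. HN4 had 30 and HN4/DDP 38 keratins well above background, against 28 in HN30 and 30 in its derivative. Of all genes, 24798 were well above background in HN4 and 25525 in its derivative. The parental HN30 array had 23950 such genes and its derivative 27625, the most of any array. In HN4/DDP, 13 keratins were higher than in HN4 (23.6%, against 2.24% of all genes) and 1 was lower (1.82%, against 1.36% of all genes). In HN30/DDP, 1 was higher than in HN30 (1.82%, against 5.48% of all genes) and 4 were lower (7.27%, against 1.80% of all genes). A single keratin, KRT23, was higher in both resistant lines (0.688% of all genes), and no keratin was lower in both at this scaling (0.0808% of all genes). The former rests on the probe read for each gene. A second KRT23 probe was dim in HN30 and HN30/DDP, with a difference of 0.47. A second KRT14 probe had differences of 3.95 in HN4/DDP and 3.38 in HN30/DDP, the latter over a dim HN30 signal. The 3 keratins KRT6A, KRT6C and KRT32 were higher in HN4/DDP but lower in the other derivative, as were 0.0439% of all genes, or 19 of 43305.

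**Figure D1:**
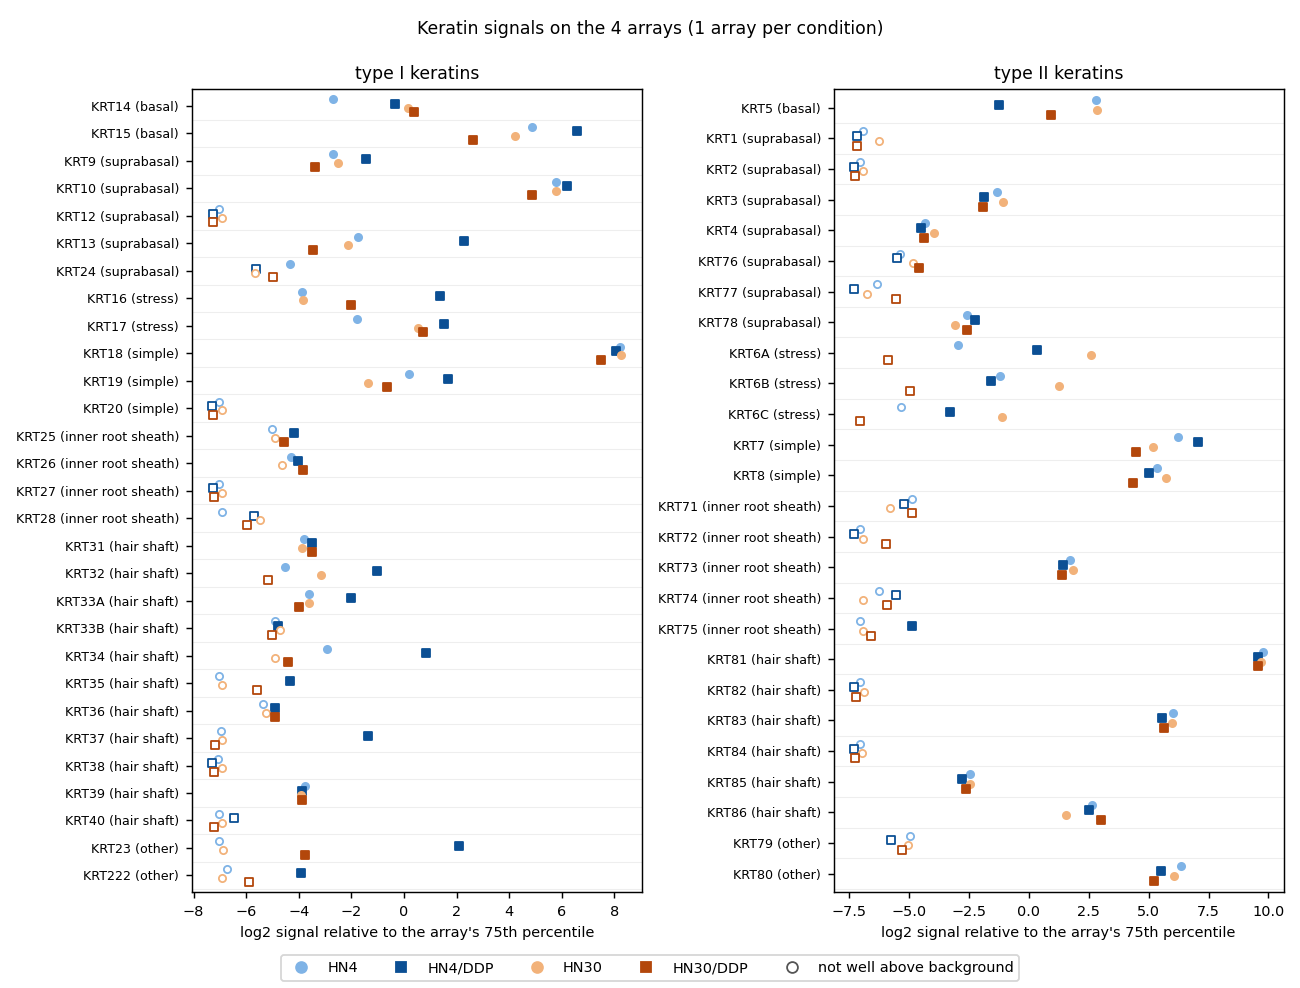
Log2 signal of all 55 keratins relative to the 75th percentile of the array (horizontal axes), with 1 point per array; type I genes are on the left and type II genes on the right, and the group of each gene is in brackets. Filled points are well above background and open points are dim; the open points of KRT6A, KRT6B and KRT6C in HN30/DDP lie left of their HN30 points, with differences of -8.44, -6.23 and -5.96.

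The 3 basal keratins differed from each other in direction. KRT5, the type II keratin of the basal layer, had a level of 2.79 in HN4 against -1.26 in HN4/DDP, and of 2.84 in HN30 against 0.91 in HN30/DDP. Both parental arrays were thus close to each other and both resistant arrays lay below them. The difference was -4.05 in HN4/DDP (scanner SD 0.21), or 16.6-fold lower, and KRT5 was the only keratin counted as lower there. In HN30/DDP it was -1.93 (scanner SD 0.20), just short of the threshold. With the array's median as the scale it was -2.35 there, so that KRT5 was lower in both resistant lines under that setting.

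KRT14, the type I partner of KRT5, had a level of -2.68 in HN4 against -0.35 in HN4/DDP, and of 0.17 in HN30 against 0.39 in HN30/DDP. HN4 stood below the other 3 arrays. The difference was 2.33 in HN4/DDP (scanner SD 0.22), whereas HN30/DDP had 0.22 (scanner SD 0.20). The array carries a second KRT14 probe, nearer the start of the gene (hg19 chr17:39742569-39742628), while the probe used lies at chr17:39740013-39740072. On that second probe HN4/DDP was higher by 3.95, and HN30/DDP by 3.38 over a dim HN30 signal, so the probes disagree on HN30/DDP. There HN4 stood at -4.72 and HN30 at -4.85, so HN4 was not the lowest array. With the normexp background correction the KRT14 difference in HN4/DDP was 1.71 and no longer past the threshold.

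KRT15, a further type I keratin of basal cells, had a level of 4.88 in HN4 against 6.59 in HN4/DDP, and of 4.22 in HN30 against 2.62 in HN30/DDP. HN4/DDP was the highest array and HN30/DDP the lowest. Its differences were 1.71 and -1.60 (scanner SD 0.20 for both), opposite in sign and both within the threshold, although the latter was -2.02 with the array's median as the scale. The median over the 3 basal keratins was 1.71 in HN4/DDP and -1.60 in HN30/DDP.

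The stress keratins had the largest median differences of the 7 groups, in opposite directions in the lines. In HN4/DDP 4 of 5 were higher (2.24% of all genes), with a median of 3.29, whereas in HN30/DDP 3 of 5 were lower (1.80% of all genes), with a median of -5.96. The latter is the value of KRT6C, which was dim in HN30/DDP, and it was -3.83 with dim signals at the bound. The 2 stress keratins well above background on both arrays of the HN30 line, KRT16 and KRT17, had a median of 1.00. KRT6A, the main type II keratin of activated keratinocytes (probe at hg19 chr12:52881087-52881146), had a level of -2.97 in HN4, 0.35 in HN4/DDP and 2.57 in HN30, and was dim in HN30/DDP with -5.87. The gene was thus brightest in parental HN30 and below the background threshold in its resistant derivative. Its difference was 3.32 in HN4/DDP (scanner SD 0.22), or 10.01-fold higher. In HN30/DDP it was -8.44 (scanner SD 0.60), or at least 183-fold lower.

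KRT6B, its close paralog, had a level of -1.22 in HN4, -1.57 in HN4/DDP and 1.26 in HN30, and was dim in HN30/DDP with -4.97. The arrays of the HN4 line lay close together and those of the HN30 line far apart. The difference was -0.35 in HN4/DDP (scanner SD 0.21), whereas HN30/DDP had -6.23 (scanner SD 0.36), the latter at least 73.8-fold lower. KRT6C, the third paralog, was dim in HN4 with -5.34, stood at -3.31 in HN4/DDP and -1.11 in HN30, and was dim in HN30/DDP with -7.07. It was brightest in HN30, as were KRT6A and KRT6B. Its difference was 2.02 in HN4/DDP (scanner SD 0.49), or at least 2.73-fold higher. In HN30/DDP it was -5.96 (scanner SD 1.29), or at least 14.2-fold lower.

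The KRT6C call in HN4/DDP was kept under only 3 of 9 other settings of the analysis, with differences between 0.53 and 2.06. Of the 9, a threshold of 1 keeps every call by construction, here and below. The mean of a gene's probes changes nothing for a gene with 1 probe, as is the case for each KRT6 gene. The lower calls of the 3 KRT6 genes in HN30/DDP were kept under 8 of 9 each, and were lost where detection on both arrays was required, since each gene was dim in HN30/DDP. KRT6A, KRT6B and KRT6C are very similar in sequence, and cross-hybridisation between their probes was not tested.

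KRT16, the type I partner of KRT6A, had a level of -3.87 in HN4 against 1.38 in HN4/DDP, and of -3.83 in HN30 against -2.01 in HN30/DDP. Both parental arrays were low and both resistant arrays higher. The difference was 5.25 in HN4/DDP (scanner SD 0.26), or 38.1-fold higher, and 1.81 in HN30/DDP (scanner SD 0.27). A second KRT16 probe, for an Ensembl transcript, was dim on all 4 arrays.

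KRT17, which pairs with KRT6B and is known in wound edges and tumours, had a level of -1.78 in HN4 against 1.51 in HN4/DDP, and of 0.54 in HN30 against 0.73 in HN30/DDP. HN4 again stood below the other 3 arrays, as it did for KRT14 on the probe used but not on its second probe. The difference was 3.29 in HN4/DDP (scanner SD 0.21), or 9.78-fold higher, and 0.19 in HN30/DDP (scanner SD 0.20). In HN30/DDP the type II stress keratins and their type I partners therefore parted. With the dim signals of KRT6A and KRT6B set to the bound, KRT16 lay at least 9.33 above KRT6A and KRT17 at least 6.40 above KRT6B in log2 difference. In HN4/DDP the same partners differed by 1.93 and 3.64.

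**Figure D2:**
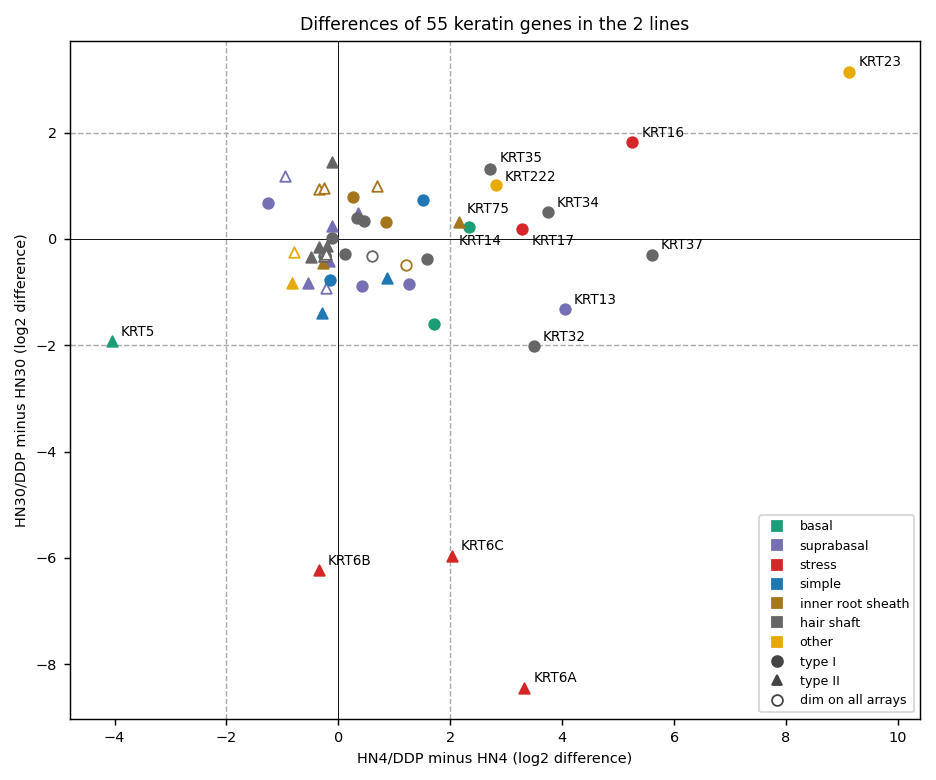
Log2 difference of each keratin in HN4/DDP against HN4 (horizontal axis) and in HN30/DDP against HN30 (vertical axis); colours give the group, circles type I and triangles type II, open symbols genes dim on all 4 arrays, and dashed lines a difference of 2 either way. KRT23 stands alone at the upper right (9.13 and 3.15), KRT5 at the left (-4.05 and -1.93), and the 3 KRT6 genes lie below -5.9 on the vertical axis.

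Of the 5 simple keratins 0 passed the threshold in either line, which is near the shares of all genes (2.24% higher and 1.36% lower in HN4/DDP, 5.48% and 1.80% in HN30/DDP). KRT8, the type II keratin of simple epithelia, had a level of 5.33 in HN4 against 5.03 in HN4/DDP, and of 5.71 in HN30 against 4.32 in HN30/DDP. KRT18, its type I partner, had a level of 8.20 in HN4 against 8.06 in HN4/DDP, and of 8.27 in HN30 against 7.51 in HN30/DDP. For both genes the HN30/DDP array was the lowest, and the arrays of the HN4 line differed little. The differences in HN4/DDP were -0.30 for KRT8 and -0.14 for KRT18, against a scanner SD of 0.20 for each. In HN30/DDP they were -1.39 and -0.76. Of the other KRT8 probes, 1 gave the same -1.39 and 1, for a noncoding RefSeq transcript, gave 0.20.

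KRT7, a type II keratin of glandular epithelia, had a level of 6.20 in HN4 against 7.07 in HN4/DDP, and of 5.19 in HN30 against 4.46 in HN30/DDP. HN4/DDP was its highest array and HN30/DDP its lowest. KRT19, the type I keratin that lacks the tail domain of its relatives, had a level of 0.18 in HN4 against 1.68 in HN4/DDP, and of -1.38 in HN30 against -0.64 in HN30/DDP. Its resistant arrays were both above their parents, by 1.51 and 0.73. KRT20, a keratin of intestinal and urothelial cells, was dim on all arrays, with -7.04 in HN4 against -7.29 in HN4/DDP, and -6.93 in HN30 against -7.25 in HN30/DDP.

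Of the 12 suprabasal keratins 1 was higher in HN4/DDP, where 2.24% of all genes were higher and 1.36% lower, and 0 passed the threshold in HN30/DDP, where the shares were 5.48% and 1.80%. These counts are near those shares. KRT13, the type I keratin of the non-cornifying oral mucosa, had a level of -1.76 in HN4 against 2.29 in HN4/DDP, and of -2.12 in HN30 against -3.44 in HN30/DDP. HN4/DDP stood far above the other 3 arrays. The difference was 4.05 in HN4/DDP (scanner SD 0.21), or 16.6-fold higher, and -1.32 in HN30/DDP (scanner SD 0.24). KRT4, the type II partner of KRT13, had differences of -0.17 and -0.41, so the pair differed by 4.22 in HN4/DDP. Of the epidermal pair, KRT10 was well above background everywhere, with differences of 0.42 and -0.88, and KRT1 was dim on all arrays.

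KRT23, a type I keratin outside the layers of the epidermis that is known in gut and liver cells (probe at hg19 chr17:39078962-39079021), was dim in HN4 with -7.04, stood at 2.09 in HN4/DDP, was dim in HN30 with -6.90 and stood at -3.75 in HN30/DDP. It was well above background on both resistant arrays and on neither parental array. Its difference of 9.13 in HN4/DDP (scanner SD 1.46) was the largest among the keratins in that line, also with dim signals at the bound (6.86), and was at least 116-fold. In HN30/DDP the difference was 3.15 (scanner SD 1.46) and the bound was 1.83-fold.

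A second KRT23 probe gave 4.20 in HN4/DDP over a dim HN4 signal. It was dim in both HN30 and HN30/DDP, where the difference was 0.47. The call in HN30/DDP was kept under 4 of 9 other settings, with differences between 0.43 and 3.15. KRT222, a truncated keratin-like gene, was dim in HN4 with -6.73, in HN30 with -6.92 and in HN30/DDP with -5.91, and stood at -3.92 in HN4/DDP, at least 1.80-fold higher than in HN4.

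Hair-shaft keratins were counted as higher in HN4/DDP in 4 of 17 cases, against 2.24% of all genes. KRT37 (probe at hg19 chr17:39576832-39576891), a type I hair keratin, was dim in HN4 with -6.97, in HN30 with -6.91 and in HN30/DDP with -7.20, and stood at -1.37 in HN4/DDP. HN4/DDP was the only array with KRT37 well above background, where it was at least 10.5-fold higher than in HN4. KRT34, a type I keratin of the hair cortex, had a level of -2.93 in HN4 and 0.82 in HN4/DDP, was dim in HN30 with -4.91 and stood at -4.41 in HN30/DDP. HN4/DDP was its highest array, 3.75 above HN4 (scanner SD 0.22), or 13.4-fold.

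KRT32, a type I keratin of the hair cuticle, had a level of -4.52 in HN4, -1.03 in HN4/DDP and -3.16 in HN30, and was dim in HN30/DDP with -5.17. The highest array was again HN4/DDP. The difference was 3.49 in HN4/DDP (scanner SD 0.33), or 11.2-fold higher, and -2.02 in HN30/DDP (scanner SD 0.42), at least 3.45-fold lower. The former was 1.85 with the normexp correction, and the latter was kept under 5 of 9 other settings. KRT35, a further type I hair keratin, was dim in HN4 with -7.04, in HN30 with -6.92 and in HN30/DDP with -5.60, and stood at -4.32 in HN4/DDP, at least 1.36-fold higher than in HN4.

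KRT75, a type II keratin of the hair follicle's companion layer, was dim in HN4 with -7.03, in HN30 with -6.94 and in HN30/DDP with -6.61. It stood at -4.88 in HN4/DDP, too near the bound of HN4 for a fold. The calls of KRT35, KRT75 and KRT222 in HN4/DDP were each kept under 5 of 9 other settings. The remaining 34 keratins were past the threshold in neither line. Of these, 14 were well above background on all arrays, 6 on some and 14 on none, and the differences of the former 20 ran from -1.26 to 1.59 in HN4/DDP and from -0.88 to 1.45 in HN30/DDP.

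**Figure D3:**
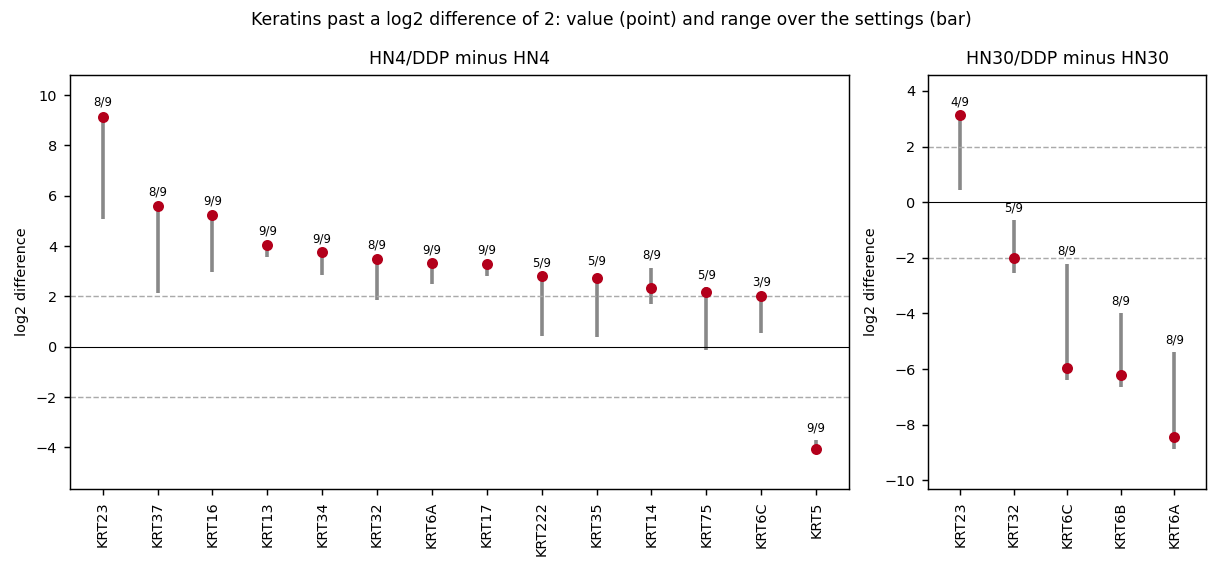
Keratins counted as higher or lower in HN4/DDP (left) and HN30/DDP (right). Points give the log2 difference in the reported setting and bars the lowest and highest difference over the settings. The numbers are how many of 9 other settings kept the call, 1 of which lowers the threshold to 1 and so keeps every call. KRT5, KRT6A, KRT13, KRT16, KRT17 and KRT34 in HN4/DDP were kept under 9 of 9.

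The calls in HN4/DDP fell mostly on type I genes. Of 29 type I keratins, 10 were higher and 0 lower (all genes: 2.24% and 1.36%), and 22 had a positive difference (all genes: 37.7%), with a median of 1.21. Of 26 type II keratins, 3 were higher and 1 lower, and 6 had a positive difference, with a median of -0.25. The median of the type II genes was thus near that of all genes (-0.21). The type I median is the value of KRT28, which was dim on all arrays. With dim signals at the bound, the medians were 0.44 for type I, -0.23 for type II and -0.23 for all genes, and 18 type I and 4 type II genes had a positive difference. Among the 10 type I genes, 6 were well above background on both arrays (KRT13, KRT14, KRT16, KRT17, KRT32 and KRT34). In HN30/DDP, where 5.48% of all genes were higher and 1.80% lower, 1 of 29 type I genes was higher and 1 lower, and 0 of 26 type II genes were higher and 3 lower, the 3 KRT6 genes.

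Of 9 type I and type II partners set side by side, some lay far apart in their differences and some close together. KRT10 lay 0.64 above KRT1 in HN4/DDP and 0.04 in HN30/DDP, with KRT1 dim throughout, and KRT12, also dim throughout, 0.30 and 0.51 above KRT3. With a partner dim on every array, neither pair shows how close its partners lie. KRT13 minus KRT4 was 4.22 in HN4/DDP but -0.91 in HN30/DDP. KRT14 was 6.38 above KRT5 in its log2 difference in HN4/DDP and 2.15 above it in HN30/DDP. KRT35, dim in HN4, lay at least 0.78 above its hair-shaft partner KRT85 in HN4/DDP. KRT18 and KRT8 differed by 0.15 in HN4/DDP and by 0.63 in the other derivative, and KRT19 and KRT7 by 0.64 and 1.46.

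By their probes' hg19 positions 28 keratins lie on chromosome 17 and 27 on chromosome 12, where KRT18 is the only type I gene. At the high-coordinate end of the chromosome 17 set, the 7 neighbours KRT13, KRT15, KRT19, KRT9, KRT14, KRT16 and KRT17 all had a positive difference in HN4/DDP, from 1.26 to 5.25, a run noticed after the values were seen. Of these 7, 4 were past the threshold (2.24% of all genes), and 37.7% of all genes had a positive difference in that comparison. In HN30/DDP 4 of the 7 had a positive and 3 a negative difference, from -1.60 to 1.81, against 46.9% of all genes with a positive one. Beside this run, the 9 neighbours from KRT33A to KRT36, also picked after the values were seen, had 4 positive and 5 negative differences in HN30/DDP. In HN4/DDP they had 8 positive differences, the exception being KRT38, which was dim on all arrays. Of these, KRT33B and KRT36 lay near 0 and changed sign in some settings. On chromosome 12 the genes past the threshold in either line were KRT75, KRT6B, KRT6C, KRT6A and KRT5, which are 5 neighbours in this order, again noticed after the values were seen. They are 5 of 27 keratins there, against 9.94% of all genes past the threshold in either line, and KRT75 at the end of the run was at -0.12 with dim signals at the bound.

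**Figure D4:**
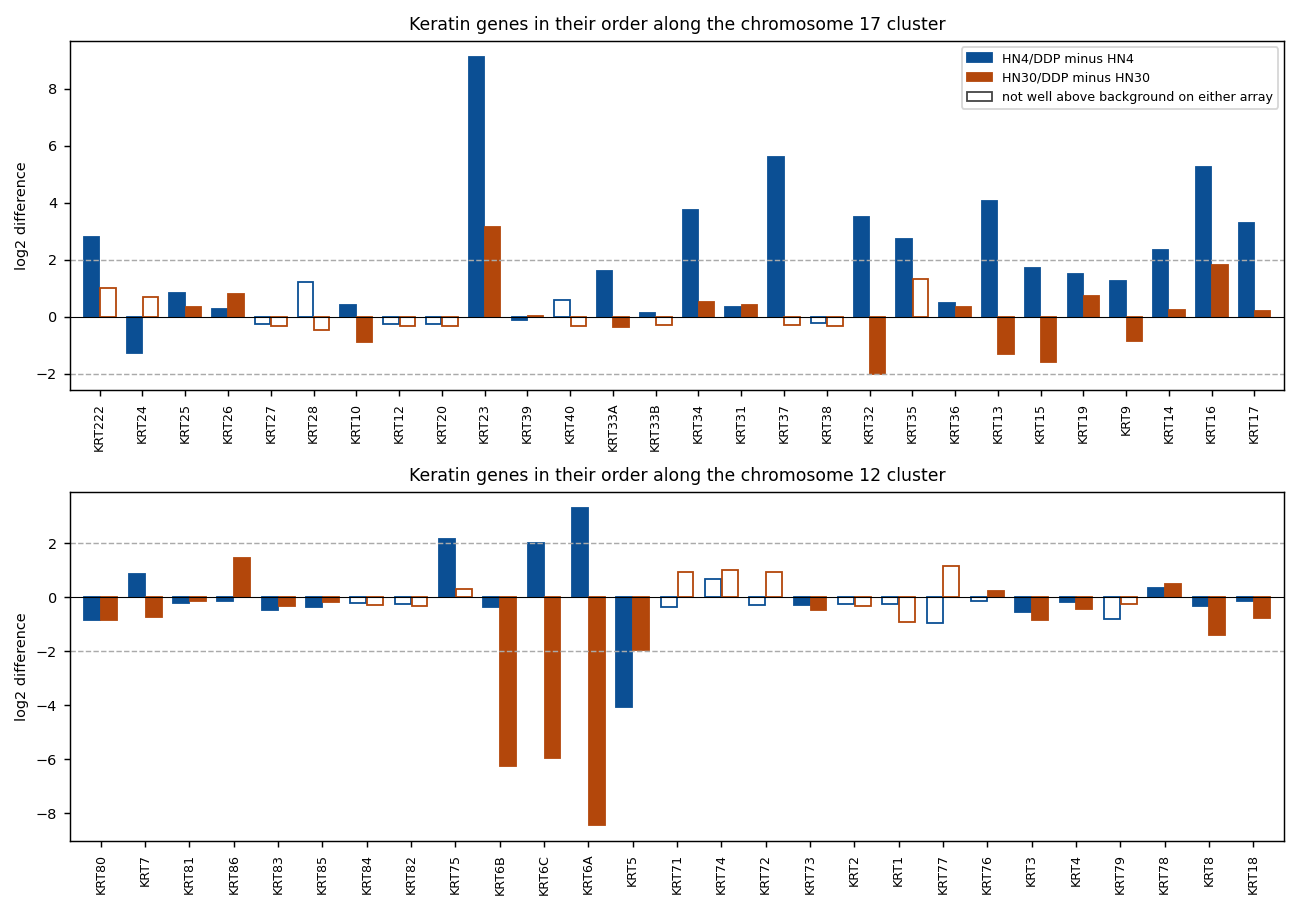
Log2 difference of each keratin in HN4/DDP against HN4 (blue) and HN30/DDP against HN30 (brown), with genes in their order along chromosome 17 (top) and chromosome 12 (bottom); open bars were dim on both arrays and dashed lines mark a difference of 2 either way. The KRT13 to KRT17 end of chromosome 17 has only upward blue bars, and the genes past the threshold on chromosome 12 stand next to each other from KRT75 to KRT5.

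The 100 bases before the start of 6 of these genes are given from the RefSeq promoter table of GRCh38.p14. Among them are the neighbours KRT37 and KRT38, whose values were unlike. All are on the minus strand and are written 5′ to 3′ along the gene, with the TATA motif TATAAA in capitals. The windows are chr17:41424586-41424685 for KRT37, chr17:41440984-41441083 for KRT38, chr17:41382307-41382406 for KRT34, chr17:41481152-41481251 for KRT35, chr17:41467387-41467486 for KRT32 and chr12:52520395-52520494 for KRT5.
KRT37: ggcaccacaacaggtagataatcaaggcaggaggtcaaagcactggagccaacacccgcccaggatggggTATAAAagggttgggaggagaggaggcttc
KRT38: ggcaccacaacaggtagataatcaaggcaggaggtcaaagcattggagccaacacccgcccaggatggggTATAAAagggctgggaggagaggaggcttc
KRT34: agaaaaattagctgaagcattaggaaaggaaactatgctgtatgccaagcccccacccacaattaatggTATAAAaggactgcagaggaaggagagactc
KRT35: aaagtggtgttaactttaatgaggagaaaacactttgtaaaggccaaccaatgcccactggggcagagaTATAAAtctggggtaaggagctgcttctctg
KRT32: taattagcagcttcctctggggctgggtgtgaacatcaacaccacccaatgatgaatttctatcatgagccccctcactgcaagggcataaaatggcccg
KRT5: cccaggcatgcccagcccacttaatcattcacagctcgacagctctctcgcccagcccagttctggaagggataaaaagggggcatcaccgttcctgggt

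The windows of KRT37 and KRT38 were identical at 98 of 100 positions, and both held TATAAA 30 bases before the start. KRT37 was higher in HN4/DDP by 5.60 over a dim HN4 signal, or at least 10.5-fold, while KRT38 was dim on every array. KRT34 and KRT35 held TATAAA 31 bases before the start. KRT32, which was higher in HN4/DDP, and KRT5, which was lower, held no TATAAA in the window. Aligned position by position, KRT34 was identical with KRT37 at 35 of 100 positions and KRT35 at 24.

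Of the 55 keratins, 34 are in the promoter table. Of the 15 keratins past the threshold in a resistant line, 9 were not searched: KRT13, KRT14, KRT16, KRT17, KRT222, KRT23, KRT6A, KRT6B and KRT6C, which include all 5 stress keratins. Searched on both strands over 250 bases before the start, TATAAA was found in 20 of these 34 (58.8%), against 10.72% of 35116 promoters. The AP-1 motif TGANTCA was found in 0 of 34, against 6.57% of all, and TGACG, the core of the cAMP response element, in 3 of 34 (8.82%), against 21.2% of all. The keratins were counted by gene and the 35116 by promoter, so the sets are not alike and their shares stand side by side only. These matches describe letters in the windows and do not show binding.

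Parental HN30 and HN4 already differed in the stress keratins. In HN30, 5 keratins were higher than in HN4 (9.09%, against 0.540% of all genes) and 0 were lower (against 1.14% of all genes). They were KRT6A by 5.54, KRT14 by 2.85, KRT6B by 2.48, KRT17 by 2.32 and KRT6C, which was dim in HN4 and at least 12.6-fold higher. KRT5, KRT16 and KRT18 differed by at most 0.07 between the parental lines. The genes lower in HN30/DDP thus include the 3 KRT6 genes that were higher in its parent. Those higher in HN4/DDP include KRT6A, KRT6C, KRT14 and KRT17, which were lower in its parent than in HN30. These comparisons share the parental arrays and are given side by side only. The KRT14 difference rests on the probe, since the second probe gave -0.13, and the KRT17 difference was 1.89 with normexp. The KRT6C difference was 4.22 as measured and 1.90 with normexp, and the call was also lost with detection on both arrays.

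The resistant arrays were also fitted against the parental ones with limma, taking the cell line as a block, so that 1 residual degree of freedom remained. Of 29521 genes, 0 had an adjusted p under 0.05, and 2537 (8.59%) had an unadjusted p under 0.05. Of the 40 keratins tested, 0 passed and 4 had an unadjusted p under 0.05. The smallest adjusted p among the keratins was 0.468 in limma, for KRT5, with an estimate of -2.99 (SE 0.65). KRT23 had an estimate of 6.14 (SE 1.48, limma adjusted p = 0.494), KRT16 of 3.53 (SE 0.88, limma adjusted p = 0.499) and KRT80, a type II keratin of many epithelia, of -0.83 (SE 0.28, limma adjusted p = 0.560). These 4 had the same sign in both lines. A small p in this fit already favours that, since its residual is how far the lines disagree.

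Genes that work with keratins were read from lists. Of 13 genes for proteins that bind keratin filaments or anchor them at junctions, 0 passed the threshold in either line (2.24% of all genes were higher and 1.36% lower in HN4/DDP, and 5.48% higher and 1.80% lower in HN30/DDP), and 12 were well above background on all arrays. Of 8 genes for regulators of keratin genes, 2 were higher in HN4/DDP and 1 in HN30/DDP, beside the same 2.24% and 5.48% of all genes. GRHL3, a transcription factor of epidermal barrier formation, had differences of 5.49 and 1.40. ZNF750, a transcription factor of terminal differentiation, had differences of 2.95 and 3.46, past the threshold in both lines. TP63, the regulator of the basal programme, had differences of -0.82 and -0.06.

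Of 8 genes for other intermediate filament proteins, 1, VIM, was higher in HN4/DDP, and LMNB1 was lower in HN30/DDP, beside 2.24% of all genes higher in the former and 1.80% lower in the latter. VIM, which encodes the vimentin of mesenchymal cells, had a level of -3.35 in HN4 against -0.60 in HN4/DDP, and of -2.46 in HN30 against -1.51 in HN30/DDP, which is 2.75 higher in HN4/DDP and 0.95 in HN30/DDP. HN4 was the lowest array and HN4/DDP the highest. LMNB1, which encodes a lamin of the nuclear envelope, had differences of -1.41 and -3.03.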

How the data were processed

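Expression was measured in HN4, HN4/DDP, HN30 and HN30/DDP with 1 Agilent array each. The deposited scanner files hold a processed intensity per spot, made with Feature Extraction 10.7.1.1, which subtracts the background and flags spots, together with hg19 probe coordinates. A deposited table gives log2 values of 58341 entries, each array having the same quantiles and a median of 4.65. Its earlier steps are not given in the sources used here.

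From 60901 non-control spots, outlier-flagged spots were left out, the 75th percentile of the array was subtracted from the log2 intensity, and spots were averaged into 58201 probes. A gene was read from the probe whose mean was highest. The 55 keratins had 64 probes, with more than 1 for 8 genes. Their names are those of the array, and 53 matched RefSeq (GRCh38.p14) by accession. The KRT83 probe also lists other hair keratins. No keratin spot was saturated.

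The members, groups and lists were chosen with earlier results of these data known. Values on all arrays are given for the basal, stress and simple groups and for other keratins past the threshold in a resistant line. The blocked fit used limma 3.58.1 with eBayes and a trend (R 4.3.3) on genes that 1 or more arrays had well above background, with Benjamini-Hochberg adjustment. The remaining scripts ran in Python 3.11.15 with numpy 2.4.6 and pandas 2.3.3. Having 1 array per condition limits the precision. Procedures were tested on simulated data. The alternatives tried were normexp (offset 50), scaling by the array's median, quantile normalization, the deposited table, a pseudocount of 16, dim signals raised to the lowest signal well above background, the mean of a gene's probes, detection on both arrays and a threshold of 1.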

Additional observations from a re-analysis of the deposited data

Results flagged for a closer look

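KRT32, KRT6A and KRT6C were past the threshold in opposite directions in the lines, higher in HN4/DDP and lower in the other derivative, as were 0.0439% of all genes. KRT32 was at 3.49 in HN4/DDP and at -2.02 in HN30/DDP. KRT6A was at 3.32 and -8.44, and KRT6C was at 2.02 and -5.96. With 1 array per condition, whether the lines differ in these 3 genes was not tested. KRT32, KRT6A and KRT6C were dim in HN30/DDP, and KRT6C was also dim in HN4.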

How the results depend on the processing

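Over 57 alternative counts of keratins, 44 stayed within 1.5 times the reported one. The 13 keratins higher in HN4/DDP became 7 with normexp and 7 with detection required on both arrays, and the 1 lower became 2 at a threshold of 1. The 1 keratin higher in HN30/DDP became 0 with normexp, the pseudocount, dim signals at the bound, the mean of all probes or detection on both arrays, and 3 at a threshold of 1. The 4 lower there became 0 with detection on both arrays and 8 at a threshold of 1. Between the parental lines, the 5 higher became 3 with normexp and the 0 lower became 5 at a threshold of 1. The causes of these moves were not tested, other than the lower threshold and the stricter filter themselves.

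Of 147 alternative group medians, 15 moved by more than the scanner error allows, and none of those 15 changed sign. A further 18 took the other sign, all of medians reported at 0.38 or nearer to 0. The stress median in HN4/DDP (3.29) became 2.48 with normexp, 3.03 with the pseudocount and 2.99 with the mean of all probes. In HN30/DDP (-5.96) it became -2.21 with normexp, -6.38 with the array's median as the scale, -3.61 with the pseudocount and -3.83 with dim signals at the bound, and between the parental lines (2.48) it became 1.90 with normexp. With the array's median as the scale, the HN30/DDP medians became -2.02 (basal), -0.79 (suprabasal, reported as -0.37) and -1.15 (simple, reported as -0.73). That scaling set the median of all genes in HN30/DDP to -0.49. With quantile normalization and with the deposited table, the basal median in HN30/DDP became -1.21 and the simple one -0.21. Of 1155 alternative values of single keratins 98 took the other sign, of which 1 belonged to a keratin past the threshold: KRT75 in HN4/DDP was at -0.12 with dim signals at the bound. With the array's median as the scale, 6 keratins were lower in HN30/DDP, KRT5 (-2.35) and KRT15 (-2.02) being added.

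No keratin passed limma's adjusted threshold with all genes in the fit, without the block or with normexp, and the number with an unadjusted p under 0.05 was 6, 4 and 3. No paired analysis was possible because of 1 array per condition where a single resistant line is set against its parent. Over both lines, the limma fit blocked on cell line is the paired one. Leaving out an array leaves the blocked fit no residual degree of freedom and was not run. Dim genes have only a bound, which limits the calls of KRT6C, KRT23, KRT35, KRT37, KRT75 and KRT222 in HN4/DDP of KRT6A, KRT6B, KRT6C, KRT23 and KRT32 in HN30/DDP, and of KRT6C between the parental lines.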
